A study of Homo sapiens with 8 samples.

Results

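The genes described are 10 members of the BCL2 family, matched by gene symbol to the Ensembl identifiers of the count files, out of 58051 genes in all. They are BAX, BAK1, BCL2L1, MCL1, BCL2, BID, BAD, BBC3, PMAIP1 and BCL2L11, and each of the 10 was found once. RNA was sequenced from 8 samples of MDA231 (MDA-MB-231), a human breast cancer cell line of triple-negative type. The 3 groups were unmodified parental cells (2 samples), SDHB KO cells (3 samples) and SDHB KO SDHA low cells (3 samples). SDHB and SDHA are subunits of respiratory complex II, the enzyme that oxidizes succinate. SDHB KO cells were made with a TALEN against exon 1 of SDHB and selected with hygromycin, and SDHB KO SDHA low cells are SDHB KO cells that also carry an SDHA shRNA plasmid and were selected with puromycin. The labels do not say which of the study's shRNAs the sequenced cells carry, nor that the sequenced SDHB KO cells hold an empty vector, so that the shRNA and its vector and selection cannot be told apart. All 3 groups were collected untreated at 70% confluency.

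Proteins of the BCL2 family decide whether the outer mitochondrial membrane is opened, the step that releases cytochrome c and starts the caspase cascade. BAX and BAK1 are the effectors that form the pores, MCL1, BCL2L1 (BCL-XL) and BCL2 hold them in check, and the BH3-only proteins BID, BAD, BBC3 (PUMA), PMAIP1 (NOXA) and BCL2L11 (BIM) either neutralize the protective proteins or activate the effectors. Much of this control acts on the proteins themselves, by phosphorylation, cleavage and degradation, which transcript counts do not measure.

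MCL1, BAD and BCL2L1 took most reads of the family, and BCL2, PMAIP1 and BCL2L11 were at the limit of detection. The libraries read the 3′ ends of transcripts, so that counts do not scale with gene length. Levels are given as CPM, counts scaled to 1000000 reads on the tested genes (defined below) with TMM normalization. How well each transcript end was captured is unknown. The mean over the 8 samples was 242.8 CPM for MCL1, 123.8 for BAD, 77.3 for BCL2L1, 55.1 for BAK1, 21.9 for BAX, 19.8 for BBC3 and 15.1 for BID. BCL2, PMAIP1 and BCL2L11 had means of 3.3, 2.4 and 2.3 CPM. Reads on genes numbered 773042 to 1427141 per sample with a median of 853763.5. The limit of detection was set at 3 counts, which ranged from 2.24 CPM in SDHB KO SDHA low replicate 2 to 4.10 in SDHB KO replicate 1. A gene was tested if its mean normalized count (the BaseMean of DESeq2) was above 5, which 7550 genes and 7 of the 10 members passed. BCL2, PMAIP1 and BCL2L11 did not pass and were not tested. Some members passed on few reads, BID with a BaseMean of 13.2, BBC3 with 17.4 and BAX with 19.3.

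**Figure D1:**
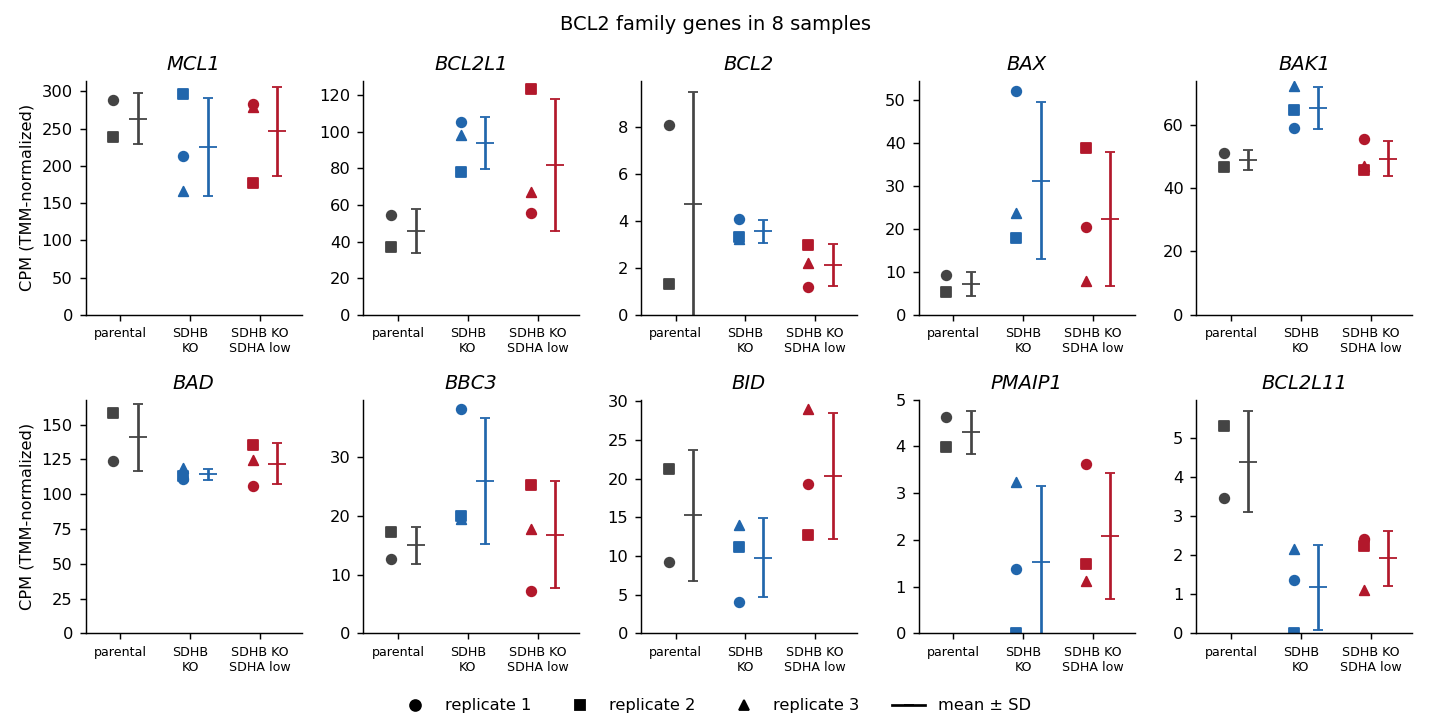
TMM-normalized CPM of the 10 genes (vertical axis, linear, a scale of its own in each panel) in 2 parental, 3 SDHB KO and 3 SDHB KO SDHA low samples. Symbols mark the replicate, and bars beside them give the mean and SD, cut off at 0. The 3 SDHB KO samples lie above both parental samples for BAX, BAK1, BCL2L1 and BBC3, and the last 3 genes by level are at 0 to 8.1 CPM.

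The targeted genes were checked first. SDHA had 64 and 69 counts in the parental samples, 108, 121 and 140 in the SDHB KO samples, and 7, 17 and 16 in the SDHB KO SDHA low samples. Its fitted level in SDHB KO SDHA low cells was 0.0911 of that in SDHB KO (log2 fold change -3.46, SE 0.28, adjusted p = 1.16e-07), in the direction the labels give. Some of its reads may be shared with SDHA pseudogenes. SDHB had 4 and 3 counts in the parental samples and 0 to 3 in each of the other 6 samples, too few to check the knockout by RNA. The marker genes VIM, CD44, KRT18 and KRT8 were present in every sample, ESR1 and PGR had no count in any, and CDH1 and EPCAM had 2 or fewer. ERBB2 had 15 to 25 counts per sample, and the blood cell markers PTPRC, CD3E and HBB had none. The counts of any pair of replicates differed by more than counting error (chi-squared over its degrees of freedom, 2.09 to 9.58), and nothing in the labels beyond a biological replicate number says whether they are separate cultures or clones, so that p-values measure the spread between these samples.

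The libraries also differed in how reads spread over genes of different GC content, a difference that runs across the groups. GC content over 300 bases at the 3′ end of the canonical transcript was set against each sample's deviation from the mean over all samples. The tenth of genes richest in GC minus the tenth poorest differed by 0.22, 0.27 and 0.32 (mean deviation in log2 CPM) in SDHB KO replicates 1 and 3 and SDHB KO SDHA low replicate 2, and by 0.12 in parental replicate 2. In parental replicate 1, SDHB KO replicate 2 and SDHB KO SDHA low replicates 1 and 3 the difference was -0.28, -0.28, -0.19 and -0.18. This is the GC trend referred to for the single genes. The median 3′ end of the tested genes had 43.3% GC. The 3′ ends of BAD (64.0%), BAK1 (56.0%), BAX (55.3%), BCL2L1 (52.3%) and BBC3 (50.0%) were above it, while those of BID (42.3%) and MCL1 (40.7%) were not.

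The comparison of SDHB KO with parental cells asks how the family's transcripts stood once complex II could no longer be fully assembled. BAX was higher in the SDHB KO samples and was the only member called at an adjusted p below 0.1 (edgeR quasi-likelihood test, Benjamini-Hochberg over 7550 genes), the threshold of the study. BCL2L1 missed the threshold narrowly, and the other 5 tested members were not called. Of all tested genes, 5.54% were called in this comparison, 3.14% higher and 2.40% lower in the SDHB KO samples. An unadjusted p below 0.05 was reached by 2 of the 7 tested members, BAX and BCL2L1, beside 17.5% of all tested genes. The members' median log2 fold change was 0.42, beside -0.00072 for all tested genes. The groups did not overlap for 5 of the 7 tested members (BAX, BAK1, BCL2L1 and BBC3 higher, BAD lower), beside 37.9% of all tested genes (19.3% higher and 18.6% lower). The parental samples are used in 2 of the 3 comparisons and each other group likewise, so that the comparisons are not independent of each other.

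BAX (ENSG00000087088, GRCh38 chromosome 19, 48954815 to 48961798, plus strand) encodes a cytosolic effector that moves to mitochondria when activated. Its counts were 8 and 4 in the parental samples, 38, 16 and 22 in the SDHB KO samples, and 17, 52 and 7 in the SDHB KO SDHA low samples. In CPM these were 9.3 and 5.3, then 52.0, 17.8 and 23.7, then 20.5, 38.8 and 7.8. Every SDHB KO sample was above both parental samples, whereas SDHB KO SDHA low replicate 3 lay between them. The mean ± SD was 7.3 ± 2.8 CPM in parental (n = 2), 31.2 ± 18.3 in SDHB KO (n = 3) and 22.4 ± 15.6 in the SDHB KO SDHA low samples (n = 3), and the last 2 groups did not differ beyond their spread. The fitted level was 4.09-fold higher in SDHB KO than in the parental samples, with a 95% interval of 1.61 to 10.4 (log2 fold change 2.03, SE 0.65, adjusted p = 0.096). In bulk RNA a change in every cell and a change in the share of cells with the transcript cannot be told apart.

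The call for BAX depended on single libraries. Without SDHB KO replicate 1, which had the highest level, its log2 fold change was 1.48 and its adjusted p was 0.343. The call was also lost without parental replicate 1 (adjusted p = 0.471), parental replicate 2 (0.408), SDHB KO replicate 3 (0.146) or SDHB KO SDHA low replicate 1 (0.109). Over the 15 alternatives that gave it an adjusted p, this ranged from 0.011 to 0.471, BAX was called in 9, and its log2 fold change stayed between 1.48 and 2.49. The 3 samples with the highest BAX levels, SDHB KO replicates 1 and 3 and SDHB KO SDHA low replicate 2, are the 3 with the largest GC trend. With the trend corrected in each sample, a choice made after the data had been seen, the log2 fold change of BAX was 1.94 and the adjusted p 0.090. Parental replicate 1 and SDHB KO replicate 2 had the same GC trend to 2 decimals and held 9.3 and 17.8 CPM, on 8 and 16 counts. SDHB KO SDHA low replicates 1 and 3, of 1 group and with trends of -0.19 and -0.18, held 20.5 and 7.8 CPM, on 17 and 7 counts. The part of the GC trend in the BAX difference was not tested.

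BCL2L1 (ENSG00000171552, chromosome 20, 31664452 to 31723989, minus strand) encodes the protective protein BCL-XL and, from another splice form, the shorter BCL-XS, which counts per gene at the 3′ end do not separate. It had 47 and 28 counts in the parental samples, 77, 70 and 91 in the SDHB KO samples, and 46, 165 and 60 in the SDHB KO SDHA low samples. The levels were 54.4 and 37.2 CPM, then 105.4, 77.8 and 98.2, then 55.5, 123.1 and 66.9. Both knockout groups lay above the parental samples throughout, though SDHB KO SDHA low replicate 1 cleared parental replicate 1 by only about 1 CPM. The fitted level was 2.03-fold higher in SDHB KO than in the parental samples, with a 95% interval of 1.25 to 3.29 (log2 fold change 1.02, SE 0.34), and the adjusted p of 0.103 missed the threshold. BCL2L1 was called in 6 of 16 alternatives, with adjusted p from 0.019 to 0.476, so that BAX and BCL2L1 fell on different sides of the threshold by a small margin. With the GC trend corrected, its log2 fold change was 0.91 with an adjusted p of 0.122.

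Sequence before the RefSeq start is shown for these 2 genes, whose levels were higher in the SDHB KO samples by the largest factors among the members. Each is the stretch of 250 bases before the RefSeq start (GRCh38.p14), 5′ to 3′ on the gene's strand, with capitals for 4 motifs on either strand: CACGTG (E-box), GGGCGG (GC box), CCAAT and TATAAA. The BAX stretch is chr19:48954625-48954874 on the plus strand and the BCL2L1 stretch, the first of 2 listed for that gene, is chr20:31723964-31724213 on the minus strand. The GENCODE positions given above start at 48954815 for BAX and at 31723989 for BCL2L1, so that the last bases of both stretches lie within them.
BAX: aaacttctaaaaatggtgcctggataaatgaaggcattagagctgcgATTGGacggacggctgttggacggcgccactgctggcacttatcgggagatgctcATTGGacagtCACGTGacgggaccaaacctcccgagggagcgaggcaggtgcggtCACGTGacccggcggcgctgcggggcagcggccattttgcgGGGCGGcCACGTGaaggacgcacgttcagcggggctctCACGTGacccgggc
BCL2L1: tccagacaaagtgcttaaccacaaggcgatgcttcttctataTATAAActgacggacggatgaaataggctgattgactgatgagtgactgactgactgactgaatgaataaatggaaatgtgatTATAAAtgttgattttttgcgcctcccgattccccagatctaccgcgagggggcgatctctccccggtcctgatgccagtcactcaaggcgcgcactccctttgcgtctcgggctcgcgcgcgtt

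The BAX stretch held 4 E-boxes, beginning at -138, -93, -45 and -14 from the start, 1 GC box, 2 CCAAT boxes (both on the reverse strand, read as ATTGG) and no TATAAA. An E-box was present in 6.49% of 27305 gene starts searched over the same length, and 5 of them held 4 or more. The BCL2L1 stretch held 2 TATAAA, at -208 and -125, and none of the others. TATAAA was present in 11.1% of gene starts, the GC box in 42.3% and CCAAT in 33.0%. The motifs in these stretches did not overlap one another. GC content was 62.8% for BAX and 50.0% for BCL2L1, beside a median of 58.0%. The other stretch listed for BCL2L1 had 60.4% GC and held none of the 4 motifs. Such matches describe the letters only, and binding was not measured. Of the 10 members, 9 had an entry in the RefSeq table, and among the other 7 an E-box was found for BID (in 2 of 5 stretches listed) and BBC3.

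BAK1 (ENSG00000030110, chromosome 6) encodes the effector that resides in the outer membrane. It had 50.9 and 46.5 CPM in the parental samples, 58.8, 64.5 and 72.3 in the SDHB KO samples, and 55.5, 45.5 and 46.8 in the SDHB KO SDHA low samples. SDHB KO samples were above all samples of both other groups. The log2 fold change of SDHB KO against parental cells was 0.42 with a 95% interval of -0.17 to 1.01 and an adjusted p of 0.466. The ratio of BAX to BAK1 counts was 0.18 and 0.11 in the parental samples, 0.88, 0.28 and 0.33 in the SDHB KO samples, and 0.37, 0.85 and 0.17 in the SDHB KO SDHA low samples.

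MCL1 (ENSG00000143384, chromosome 1), a protective protein with a short half-life, was the most abundant member. It had 288.1 and 239.0 CPM in the parental samples, 213.4, 296.8 and 166.2 in the SDHB KO samples, and 283.6, 176.8 and 278.6 in the SDHB KO SDHA low samples. The groups overlapped, and the log2 fold change of SDHB KO against parental cells was -0.23 (95% interval -0.77 to 0.31, adjusted p = 0.704). The 3 samples with the lowest MCL1 were SDHB KO replicates 1 and 3 and SDHB KO SDHA low replicate 2, those with the largest GC trend. The counts of BCL2L1 per count of MCL1 were 0.49, 0.59 and 0.70 in these 3 samples and 0.16 to 0.26 in the other 5. MCL1 took 36.2%, 31.9% and 31.3% of the family's counts in the 3 samples, and 44.7% to 51.1% in the others. The exact 95% binomial intervals, which cover counting error only, lay between 27.7% and 40.9% for the 3 samples and between 39.7% and 55.7% for the others. The part of the GC trend in this split was not tested.

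**Figure D2:**
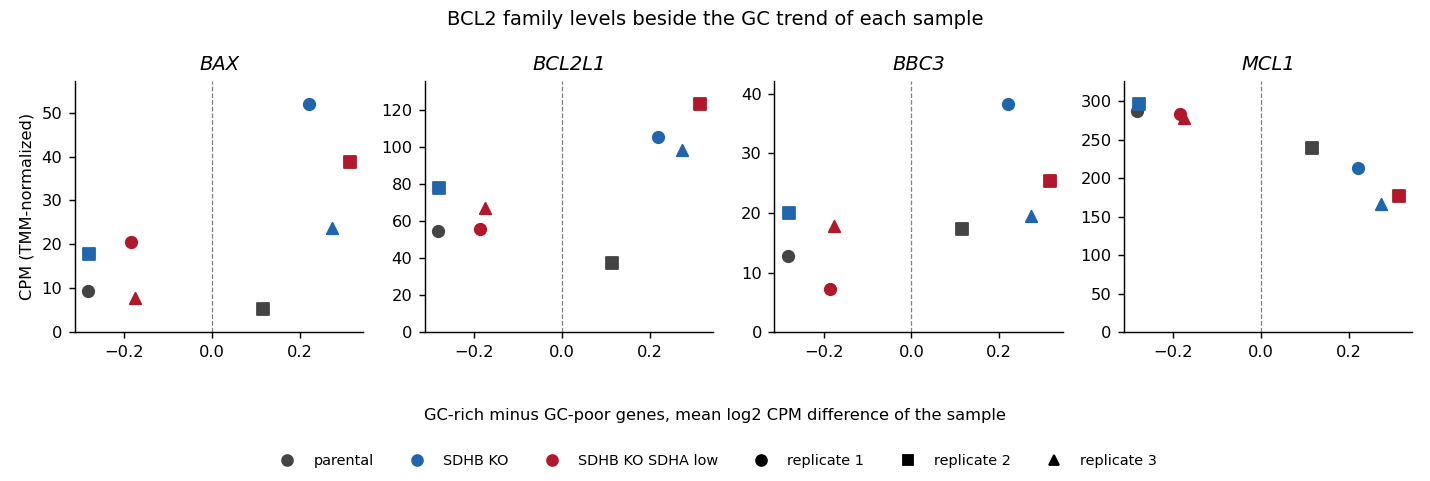
TMM-normalized CPM of BAX, BCL2L1, BBC3 and MCL1 (vertical axes, linear) against the GC trend of each of the 8 samples, the difference in mean log2 CPM deviation between GC-rich and GC-poor genes (horizontal axis). Colour gives the group and symbol the replicate. SDHB KO replicates 1 and 3 and SDHB KO SDHA low replicate 2, at 0.22 to 0.32, hold the 3 highest levels of BAX and BCL2L1 and the 3 lowest of MCL1.

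BBC3 (ENSG00000105327, chromosome 19) encodes PUMA, a BH3-only protein that binds all the protective members. Its counts were 11 and 13 in the parental samples, 28, 18 and 18 in the SDHB KO samples, and 6, 34 and 16 in the SDHB KO SDHA low samples, or 12.7 and 17.3 CPM, then 38.3, 20.01 and 19.4, then 7.2, 25.4 and 17.8. SDHB KO samples were all above the parental ones, SDHB KO replicate 3 by the least, and the third group overlapped both. The log2 fold change of SDHB KO against parental cells was 0.77 (95% interval -0.30 to 1.84, adjusted p = 0.464).

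BAD (ENSG00000002330, chromosome 11), a BH3-only protein held inactive by phosphorylation and binding to 14-3-3 proteins, had 123.8 and 158.0 CPM in the parental samples, 110.8, 113.4 and 118.7 in the SDHB KO samples, and 106.2, 135.0 and 124.8 in the SDHB KO SDHA low samples. It was lower in all SDHB KO samples than in both parental ones, by little, with a log2 fold change of -0.30 (95% interval -0.78 to 0.19, adjusted p = 0.547). Its 3′ end overlaps GPR137 on the opposite strand, which had 404 counts over all samples, and the strand setting of the counting is not given in the sources used here.

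BID (ENSG00000015475, chromosome 22) links death receptors to mitochondria once caspase-8 cleaves it. It had 8 and 16 counts in the parental samples, 3, 10 and 13 in the SDHB KO samples, and 16, 17 and 26 in the SDHB KO SDHA low samples, or 9.3 and 21.2 CPM, then 4.1, 11.1 and 14.0, then 19.3, 12.7 and 29.0. The groups overlapped in every comparison. The log2 fold change of SDHB KO against parental cells was -0.58 with a 95% interval of -1.79 to 0.62 (adjusted p = 0.651).

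PMAIP1, BCL2L11 and BCL2 were too low to compare. PMAIP1, a BH3-only protein that acts chiefly on MCL1, had 4 and 3 counts in the parental samples, 1, 0 and 3 in the SDHB KO samples, and 3, 2 and 1 in the SDHB KO SDHA low samples. BCL2L11, a BH3-only activator, had 3 and 4, then 1, 0 and 2, then 2, 3 and 1. BCL2, the family's founding member, had 7 and 1, then 3, 3 and 3, then 1, 4 and 2. Of these 24 values, 20 were at or under 3 counts, so that a difference between groups was not detectable at this depth. The 3′ end of BCL2L11 also overlaps the long noncoding RNA gene MIR4435-2HG on the opposite strand, which had 4700 counts.

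**Figure D3:**
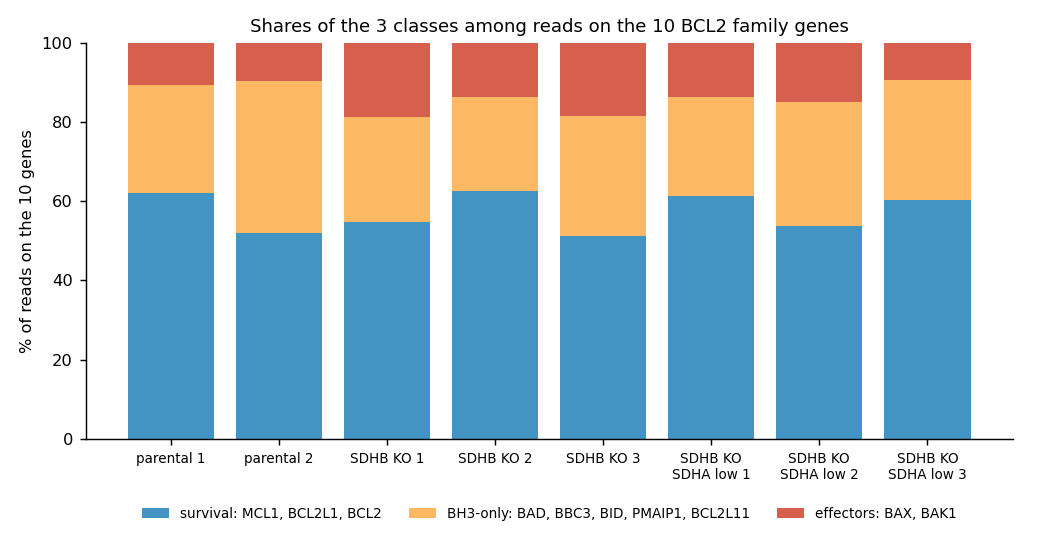
Share of the reads on the 10 genes (vertical axis, %) taken by protective genes, BH3-only genes and effectors in each of the 8 samples, as stacked bars. Effectors took 9.7% to 10.7% in parental, 13.6% to 18.8% in SDHB KO and 9.5% to 14.9% in SDHB KO SDHA low samples.

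As a whole, the family took 0.050% to 0.063% of reads on genes, 521 to 605 CPM, with both ends of the range in SDHB KO samples. The protective genes took 51.3% to 62.5% of the family's counts over the 8 samples and the BH3-only genes 23.9% to 38.5%. The effectors took 10.7% and 9.7% in the parental samples and 18.8%, 13.6% and 18.4% in the SDHB KO samples. In SDHB KO SDHA low cells they took 13.7%, 14.9% and 9.5%.

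The comparison of SDHB KO SDHA low with SDHB KO cells asks what changes when SDHA, which remains without SDHB, is depleted as well. None of the 7 tested members was called by edgeR, beside 1.51% of all tested genes, 0.318% higher and 1.19% lower. Nor was any of the 4 members to which DESeq2 gave an adjusted p, beside 128 of 4492 genes called by DESeq2. None of the 7 had an unadjusted p below 0.05 by either tool, beside 12.1% of all tested genes by edgeR. Groups were apart for 1 member, BAK1, which was lower in all 3 SDHB KO SDHA low samples (log2 fold change -0.41, 95% interval -0.93 to 0.10, adjusted p = 0.529), beside 17.4% of all tested genes (8.7% higher and 8.69% lower). BID had the largest difference, 1.98-fold higher with a 95% interval of 0.97 to 4.06 (log2 fold change 0.99, SE 0.50, adjusted p = 0.434). For BAX the log2 fold change was -0.40 (95% interval -1.37 to 0.58), and it was 0.16 without SDHB KO replicate 1. The intervals were -0.74 to 0.40 for BCL2L1, -0.36 to 0.61 for MCL1, -0.34 to 0.53 for BAD and -1.45 to 0.35 for BBC3. Changes of a size within these intervals are not excluded by these samples. The members' median was -0.17, beside 0.013 for all tested genes.

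**Figure D4:**
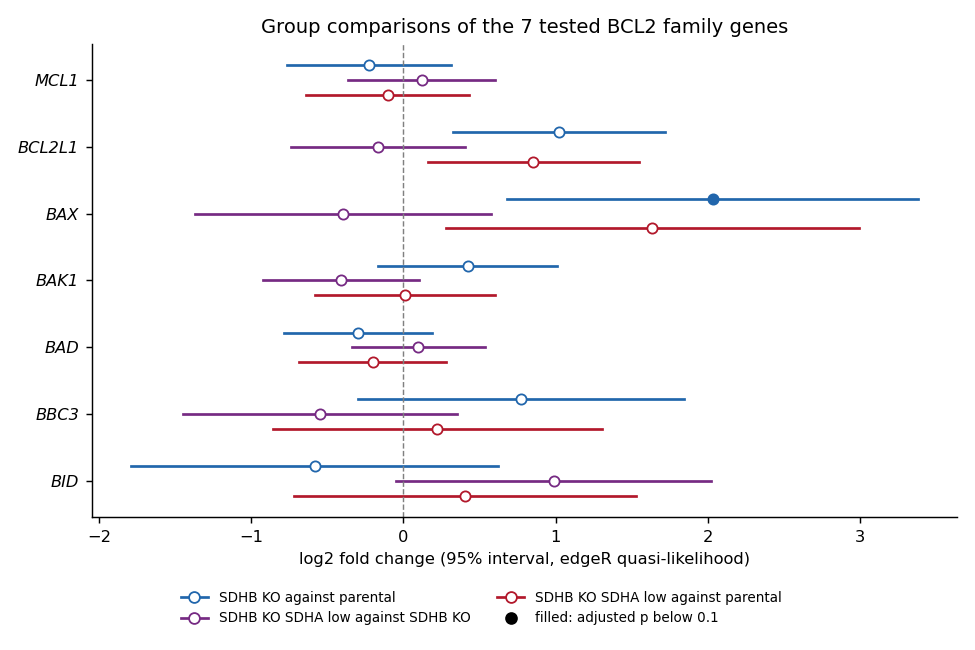
Log2 fold changes (horizontal axis) with 95% intervals for the 7 tested genes in the 3 comparisons, from the edgeR quasi-likelihood fit. A filled point is a call at an adjusted p below 0.1. Only BAX for SDHB KO relative to parental cells is filled, and the intervals of BAX and BCL2L1 against parental cells exclude 0 in both knockout groups.

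Set against parental cells, SDHB KO SDHA low cells had no member called either by edgeR, nor any of 4 by DESeq2, beside 0.914% of all tested genes by edgeR, 0.225% higher and 0.689% lower. BAX was 3.11-fold higher (95% interval 1.21 to 7.96, adjusted p = 0.294) and BCL2L1 1.81-fold higher (95% interval 1.12 to 2.92, adjusted p = 0.286). These were the only members with an unadjusted p below 0.05, a count of 2 by both tools, beside 12.3% of all tested genes by edgeR. BCL2L1 was the only member for which the groups did not overlap, beside 30.7% of all tested genes (15.2% higher and 15.5% lower). The log2 fold changes of BAK1 (0.0097), MCL1 (-0.10), BAD (-0.20), BBC3 (0.22) and BID (0.40) had intervals that included 0. The members' median was 0.22, beside 0.017 for all tested genes.

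Other genes of the pathway were taken from lists of further family members, mitochondrial proteins and pore partners, caspases and their adapters, inhibitors of apoptosis proteins, regulating transcription factors, and proteins that control the family's stability or localisation. Together with the 10 members, the only calls for SDHB KO relative to parental cells were BAX and BCL2L12. Tested were 7 members and, in the order of the lists just named, 4, 8, 5, 3, 10 and 6 other genes. The calls are near the 5.54% of all tested genes called in this comparison. BCL2L12 (ENSG00000126453), an atypical family member placed there by a BH2-like region, was among 4 of 13 further family genes that could be tested. It had 253.4 and 273.5 CPM in the parental samples, 578.8, 490.3 and 438.1 in the SDHB KO samples, and 486.4, 341.0 and 403.4 in the SDHB KO SDHA low samples, all 6 above the parental samples. Its level was 1.91-fold higher in the SDHB KO samples (95% interval 1.38 to 2.63, adjusted p = 0.032). The call was lost without parental replicate 1 (adjusted p = 0.458), parental replicate 2 (0.203) or SDHB KO replicate 1 (0.133), and adjusted p ranged from 0.0019 to 0.458 over 16 alternatives. Against parental cells its level in SDHB KO SDHA low cells was 1.55-fold higher (95% interval 1.13 to 2.14, adjusted p = 0.222). BOK, another effector, had a log2 fold change of -0.27 with an adjusted p of 0.627.

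Among mitochondrial proteins and pore partners, 8 of 9 were tested. None was called in any comparison by edgeR, beside 5.54%, 1.51% and 0.914% of all tested genes. In each comparison 1 of the 8 had an unadjusted p below 0.05 (all tested genes: 17.5%, 12.1% and 12.3%). MTCH2, a receptor for cleaved BID in the outer membrane, had a mean of 1241 ± 69.8 CPM in parental (SD, n = 2), 1822 ± 296.1 in SDHB KO (n = 3) and 1649 ± 557.1 in the SDHB KO SDHA low samples (n = 3). The log2 fold change of SDHB KO against parental cells was 0.55 (95% interval 0.040 to 1.07, adjusted p = 0.242). VDAC2, the channel that holds BAK1 at the membrane, was at 243.5 to 303.1 CPM over the 8 samples, with a log2 fold change of -0.057 for SDHB KO set against parental.

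Downstream of the membrane, 5 of 10 caspases and adapters and 3 of 5 inhibitors of apoptosis proteins were tested, and none was called in any comparison by edgeR. Of all tested genes, 5.54%, 1.51% and 0.914% were called in the 3 comparisons, so that no call among so few genes is close to that share. An unadjusted p below 0.05 was reached by 17.5%, 12.1% and 12.3% of all tested genes. CASP2, an initiator caspase, was at 142.3, 125.6 and 105.8 CPM in SDHB KO and 77.2, 57.5 and 102.5 in the SDHB KO SDHA low samples, a log2 fold change of -0.66 (adjusted p = 0.251) and the only gene of these lists at an unadjusted p below 0.05. FADD, the adapter of death receptors, had log2 fold changes from -0.15 to 0.17 in the 3 comparisons. BIRC5 (survivin) was at -0.40 for SDHB KO relative to parental cells (adjusted p = 0.441) and 0.46 in SDHB KO SDHA low cells set against SDHB KO (adjusted p = 0.422). BIRC2 (cIAP1) was at 0.16 and -0.73 in the same comparisons (adjusted p = 0.897 and 0.456).

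All 10 listed transcription factors were tested, and 1 was called, in SDHB KO SDHA low relative to SDHB KO. Of all tested genes, 5.54%, 1.51% and 0.914% were called in the 3 comparisons, in the order given above. An unadjusted p below 0.05 was reached by 3 of the 10 factors for SDHB KO relative to parental cells. For SDHB KO SDHA low it was reached by 4 relative to SDHB KO and by 2 relative to parental cells. The shares of all tested genes were 17.5%, 12.1% and 12.3%. ATF4, the factor of the integrated stress response whose targets include BBC3 and PMAIP1, was lower in SDHB KO SDHA low than in the SDHB KO samples. It had 159.6 and 199.1 CPM in the parental samples, 314.7, 235.7 and 325.9 in the SDHB KO samples, and 155.7, 188.0 and 163.8 in the SDHB KO SDHA low samples. SDHB KO samples were above all others. The log2 fold change was -0.78 for SDHB KO SDHA low cells set against SDHB KO (SE 0.20, adjusted p = 0.075) and 0.70 for SDHB KO against parental cells (SE 0.23, adjusted p = 0.103). The first was called in 7 of 16 alternatives, with adjusted p from 0.012 to 0.303, and was lost without either parental sample, SDHB KO replicate 1 or 3, or SDHB KO SDHA low replicate 1 or 3. E2F1, which activates several pro-apoptotic genes, had 143.5 and 176.6 CPM in the parental samples, 336.6, 146.7 and 268.7 in the SDHB KO samples, and 162.9, 232.0 and 180.5 in the SDHB KO SDHA low samples. The 3 highest were the 3 samples with the largest GC trend, and the log2 fold change of SDHB KO against parental was 0.65 (adjusted p = 0.240). A pair of factors outside the naming rule was picked after their values were seen. DDIT3 (CHOP), which acts with ATF4, had 4 and 9 counts in the parental samples, 23, 15 and 17 in the SDHB KO samples, and 5, 8 and 10 in the SDHB KO SDHA low samples. Its log2 fold change for SDHB KO SDHA low relative to SDHB KO was -1.51 (SE 0.49, adjusted p = 0.194), and its 3′ end overlaps MARS1 on the opposite strand, which had 1024 counts. MYC had 2 and 0 counts, then 3, 4 and 4, then 10, 16 and 8, the last group above all other samples. Its adjusted p was 0.147 against parental cells and 0.385 against SDHB KO, and both parental counts were under the limit of 3. For the protein the paper reports the other direction, a marked decrease of cMYC by Western blot in both knockout groups relative to parental cells. BBC3 and PMAIP1 were not called in either comparison, BBC3 by the test and PMAIP1 because it was not tested.

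Of 9 genes that control the family's stability or localisation 6 were tested. None was called by edgeR in any comparison, beside the same 5.54%, 1.51% and 0.914% of all tested genes. In the order given above, 1, 0 and 1 of the 6 had an unadjusted p below 0.05, beside the same 17.5%, 12.1% and 12.3% of all tested genes. The 14-3-3 genes YWHAZ and YWHAQ, whose products bind phosphorylated BAD, had log2 fold changes of -0.43 (adjusted p = 0.327) and -0.16 (adjusted p = 0.807) for SDHB KO relative to parental cells.

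The 3 genes whose pattern was most like that of BAX over the 8 samples, by Pearson's r of log2 CPM among 7549 other tested genes, were MCTS1 (r = 0.979), ECHDC3 (r = 0.972) and ALYREF (r = 0.971). These are descriptions from 8 samples that share depth and GC trend, with no test.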

How the data were processed

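RNA from 8 samples of the MDA231 line was sequenced with a QuantSeq 3′ mRNA kit on a MiSeq. The authors trimmed reads with Trimmomatic, took out rRNA and mitochondrial reads with Sortmerna, aligned to GRCh38 and deposited raw counts per gene from STAR 2.5.2b. They also deposited a normalized signal, which equals these counts times a factor per sample. The normalized signal of SDHB KO replicates 1 and 3 matches the raw counts of replicates 3 and 1, so that only raw counts, with their own replicate numbers, were used. Rows that name no gene (unmapped, multimapping, unassigned) held 18.8% to 28.6% of reads and were left out.

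Counts were TMM-normalized and fitted with the quasi-likelihood test of edgeR 4.0.16 (R 4.3.3), 8 samples and 3 groups in 1 fit, with 5 residual degrees of freedom. Genes with a BaseMean above 5 were tested, p-values were adjusted by Benjamini-Hochberg over all of them, and an adjusted p below 0.1 was a call. The standard error is the log2 fold change over the square root of F, and log2 CPM used a prior count of 2. Alternatives were DESeq2 1.42.0, its size factors, 2 other filters, an adjusted p of 0.05, the 2 groups alone, a replicate block, each sample left out, and, added after the data were seen, a GC correction (lowess, span 0.3, over 300 bases at the 3′ end). Positions and 3′ ends came from GENCODE release 44 on GRCh38, another release than the authors' annotation, and start sequences from RefSeq. The script was tested on simulated data.

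The members, the lists and the tests were chosen with earlier results of these data known. By rule, the named genes were the 10 members, SDHB and SDHA, and from each other list any gene called and the 2 of highest mean CPM among those tested, with the 3 genes most like each called member. Annotated pseudogenes with a few counts may share reads with SDHA.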

Additional observations from a re-analysis of the deposited data

How the results depend on the processing

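Over the settings, the direction of the tested members and of BCL2L12, ATF4 and SDHA changed in 13 of 480 cases, none of them a called difference. In SDHB KO set against parental, BID turned (0.10, log2) without parental replicate 2, the values with 1 sample left out being -1.08 to 0.10. In SDHB KO SDHA low set against SDHB KO, BAX turned (0.16) without SDHB KO replicate 1 (-1.14 to 0.16), MCL1 (-0.069) without SDHB KO replicate 3 (-0.069 to 0.37), BCL2L1 (0.038) without SDHB KO SDHA low replicate 1 (-0.63 to 0.038) and BAD (-0.0044) without SDHB KO SDHA low replicate 2 (-0.0044 to 0.19). In SDHB KO SDHA low set against parental, MCL1 (0.034) and BID (-0.094) turned without parental replicate 1, BAK1 (-0.064) and ATF4 (0.076) without parental replicate 2, BAK1 (-0.080) without SDHB KO SDHA low replicate 1, MCL1 (0.086) and BBC3 (-0.24) without SDHB KO SDHA low replicate 2, and BAK1 (-0.0088) with the replicate block. With 1 sample left out the last comparison ranged from -0.24 to 0.086 for MCL1, -0.094 to 1.09 for BID, -0.080 to 0.074 for BAK1, -0.24 to 0.076 for ATF4 and -0.24 to 0.55 for BBC3. The causes were not tested. In SDHB KO against parental cells 1 member was called, and 2 (BAX and BCL2L1) with no filter on low counts or with the 2 groups alone, 0 at an adjusted p of 0.05, and 0 to 2 with 1 sample left out. DESeq2 also called 1, but this was BCL2L1 (adjusted p = 0.083), and it gave no adjusted p for BAX (unadjusted p = 0.0053), BID and BBC3. Of all genes with an adjusted p, DESeq2 called 394 of 3168, beside 1 of 4 members. With no filter on low counts 469 of 15883 genes were called, beside 2 of 10 members. With the 2 groups alone it was 777 of 7434 genes, beside 2 of 7 members. The other comparisons had 0 members called in every setting. Genes called in SDHB KO against parental cells numbered 418, and 171 at an adjusted p of 0.05, 777 with the 2 groups alone and 0 (without parental replicate 1) to 846 (without SDHB KO SDHA low replicate 2) with 1 sample left out. For the SDHA knockdown within SDHB KO the count was 114, then 64, 64 and 39 to 375, and against parental cells it was 69, then 13, 7 and 4 to 173, with 152 under no filter on low counts. A sample left alone in its group was assumed to vary like the others.

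Samples with the same replicate number did not deviate together (mean r -0.070 over 7 pairs, range -0.27 to 0.093). Deviations were taken from means of 2 or 3 samples, which makes this a weak check, and a shared preparation of samples was not tested. With the replicate block, 199, 59 and 12 genes were called in the 3 comparisons, BAX kept its call and that of ATF4 was lost. On depth, 3 of the 10 members lay near 3 counts, and BAX rests on 12 parental counts.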
